A study of Mus musculus with 22 samples.

Results

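The 10 genes Prg4, Serpinb2, F5, F10, Selp, Timd4, Garnl3, Ltbp1, Naip1 and Icam2, taken from the 31053 genes counted in this series, are genes of the peritoneal macrophage signature. They were described by library in myeloid barcodes, meaning droplet barcodes with at least 200 genes, at most 25% mitochondrial counts and at least 1 unique molecular identifier (UMI, a captured transcript) of Lyz2 or Csf1r, which mark monocytes, macrophages and related cells. The genes had been picked on measured values of these same data, namely their level and share of positive barcodes in circulating cells of each genotype against tissue and blood mononuclear cells, and their detection in the same barcodes. Those readouts are therefore given below as descriptions without a test. By contrast, Nalcn genotype within tissue and other genes of the same barcodes played no part in that choice and were tested. Sex was not a label in that choice and was tested too. Its test uses the same ntCZC values, in which sex and genotype are unevenly mixed, so it is not independent of the choice. The lists of other genes were, however, drawn up with earlier results of these data known.

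Non-tumour circulating ZsGreen+ cells (ntCZC) were sorted by fluorescence from blood drawn at autopsy from mice with Prom1-CreERT2, a tamoxifen-activated Cre expressed from the Prom1 gene, and Rosa26ZSG, a ZsGreen reporter that Cre switches on. Every mouse of the series carried these alleles on a mixed background and no cancer-driving allele, and the mice differed in Nalcn, which encodes a sodium leak channel and was wt, het or null. The ntCZC libraries were 2 wt (both male, 571 and 608 days old), 4 het (males of 610, 551 and 551 days as replicates 1, 2 and 4, and a female of 649 days as replicate 3) and 4 null (females of 551, 612 and 613 days as replicates 1, 3 and 4, and a male of 552 days as replicate 2). The tissue libraries held kidney, liver, lung, stomach and either epididymis or uterus together, tagged with hashtag antibodies. They were 5 wt libraries (male of 571, 571 and 608 days, female of 611 and 654 days), 2 het libraries (both male, 551 days) and 2 null libraries (male of 552 days and female of 611 days). A single library of peripheral blood mononuclear cells (PBMC) came from a wt male of 120 days, so tissue source, age and sort cannot be told apart in any comparison with it. A library is treated here as 1 replicate; the labels do not state how many mice each one holds, and p-values measure the spread between libraries. No library of peritoneal cells was analysed here.

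Large peritoneal macrophages are the main resident macrophages of the mouse peritoneal cavity, and they depend on the transcription factor GATA6. They are known for high F4/80 (Adgre1), Cd11b (Itgam), Icam2 and Tim4, for low MHC class II, and for making complement and clotting factors such as factor V. Small peritoneal macrophages come from blood monocytes and carry MHC class II.

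The 10 ntCZC libraries held 50 to 621 barcodes and 161541 to 2600526 UMIs each, of which 1656 barcodes were myeloid (3 to 468 per library). The wt replicate 3 had 3 myeloid barcodes, with 1 UMI of F10 and none of the other genes, and took no part in means or fits, which leaves wt ntCZC with 1 library. The 9 tissue libraries held 33414 myeloid barcodes (206 to 12673) and the PBMC library 73. Median depth of myeloid barcodes was 1913 to 7517 UMIs in ntCZC, 1376 to 7204 in tissue and 1125 in PBMC. No pair of ntCZC libraries shared a barcode sequence, and no ntCZC library shared more than 8 with any other library.

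Prg4 lies on chromosome 1 (150449412 to 150466165, minus strand, GRCm38) and encodes lubricin, a secreted lubricant of joint and serosal surfaces. Levels are given as CPM, the UMIs of a gene over all UMIs of the same barcodes on the usual counts-per-million scale. Prg4 was at 688, 1825, 3002 and 0 CPM in het replicates 1 to 4, and at 3627, 463, 1607 and 1719 CPM in null replicates 1 to 4. It was at 0 in wt replicate 1, where 428 barcodes allow a share of up to 0.701% and a level of up to 1.79 CPM, as it was in het replicate 4, where 468 barcodes allow up to 0.641% and 1.51 CPM. Thus 7 of 9 ntCZC libraries stood far above every tissue library (0.246 to 30.1 CPM) and the remaining 2, wt replicate 1 and het replicate 4, held no Prg4 transcript at all. Levels averaged 1437 ± 1282 CPM (SD, n = 9) in ntCZC and 9.38 ± 9.53 CPM (n = 9) in tissue, a 153-fold difference of the means. The share of positive barcodes averaged 20.1% ± 20.3 in ntCZC and 0.353% ± 0.217 in tissue, against 1 of 247 B cell barcodes of ntCZC, which should lack the gene and had median depths of 2124 to 9772 UMIs.

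Ltbp1 (chromosome 17, 75005568 to 75392512, plus strand) encodes a protein that holds latent TGF-beta in the matrix. Its CPM was 9.79, 143, 130.5 and 0 in het replicates 1 to 4, 185, 28.3, 116 and 92.4 in null replicates 1 to 4, and 1.19 in wt replicate 1. Tissue ranged from 10.4 to 19.5 CPM, so that 6 of 9 ntCZC libraries lay above every tissue library and 3 below. In tissue, a minority of the transcripts of Icam2, Ltbp1, Garnl3 and Selp (41.9% to 48.6%) lay in myeloid barcodes, whereas in ntCZC at least 94.5% did. Myeloid barcodes were themselves 33414 of 72758 barcodes past the filters in tissue and 1656 of 2109 in ntCZC. The part of that difference in the contrast was not tested. Garnl3, which encodes a protein with a Rap-GAP domain (chromosome 2, 32986224 to 33131654, minus strand), was at 8.16, 108, 76.5 and 0 CPM in het, at 149, 27.3, 31.5 and 67.3 CPM in null and at 0 CPM in wt replicate 1, against 0 to 3.08 CPM in tissue.

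Serpinb2, F5 and F10 act in clotting and fibrinolysis. Serpinb2 (chromosome 1, 107511423 to 107535478, plus strand) encodes PAI-2, an inhibitor of plasminogen activators. It was present in every ntCZC library, at 113, 191, 570 and 40.3 CPM in het replicates 1 to 4, at 400.2, 82.9, 373 and 303 CPM in null replicates 1 to 4, and at 82.9 CPM in wt replicate 1. It was thereby the only one of the 10 genes for which 9 of 9 ntCZC libraries lay above every tissue library (2.09 to 15.3 CPM). PBMC held 6 Serpinb2 transcripts in 73 barcodes, or 44.0 CPM, within the range of ntCZC and above tissue. The mean share of positive barcodes was 26.8% ± 9.62 in ntCZC and 1.74% ± 1.28 in tissue, and 0 of 247 ntCZC B cell barcodes were positive, which allows a share of up to 1.21%.

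F5 (chromosome 1, 164151838 to 164220277, plus strand) encodes factor V, the cofactor of factor X in the complex that makes thrombin. Its CPM was 88.1, 369.5, 213 and 9.57 in het replicates 1 to 4, 242, 67.9, 94.5 and 219 in null, and 19.1 in wt replicate 1. Here 8 of 9 ntCZC libraries lay above every tissue library (5.51 to 16.3 CPM), and het replicate 4 lay among them. F10 (chromosome 8, 13037308 to 13056676, plus strand), which encodes factor X itself, was the member closest to tissue, with 183.7 ± 104 CPM in ntCZC and 84.3 ± 12.0 CPM in tissue. Its level in wt replicate 1 (88.3 CPM) and het replicate 4 (68.5 CPM) fell within the tissue range of 64.8 to 94.0 CPM, and in tissue 19.3% ± 4.38 of myeloid barcodes already held an F10 transcript. PBMC was at 58.7 CPM for F5 and 44.0 CPM for F10.

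Selp and Icam2 encode adhesion molecules. Selp (chromosome 1, 164115264 to 164150026, plus strand) encodes P-selectin, which binds Psgl-1 on leukocytes, and ends 1811 bases before F5 begins. Its CPM was 86.5, 98.8, 217 and 0 in het replicates 1 to 4, 226, 44.4, 126 and 108 in null, and 1.79 in wt replicate 1, against 2.24 to 22.9 in tissue. Icam2 (chromosome 11, 106377656 to 106388075, minus strand) encodes a ligand of the integrin LFA-1. It was at 215, 207, 220.4 and 11.6 CPM in het, at 250.3, 61.5, 147 and 303 CPM in null, and at 14.3 CPM in wt replicate 1, and tissue ranged from 13.8 to 54.7 CPM. Icam2 was also the only member with a sizeable share in ntCZC B cell barcodes, of which 39 of 247 (15.8%) were positive, against a mean of 20.3% ± 11.9 of myeloid barcodes.

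Timd4 (chromosome 11, 46810800 to 46844332, plus strand) encodes Tim4, a receptor for phosphatidylserine on dying cells that is also found on Kupffer cells of the liver. Its CPM was 60.4, 98.8, 299.9 and 0 in het replicates 1 to 4, 178, 16.0, 121 and 85.2 in null, and 0 in wt replicate 1. Tissue stood at 3.74 to 11.5 CPM in 8 libraries and at 83.7 CPM in wt replicate 5, so that 5 of 9 ntCZC libraries exceeded every tissue library. Naip1 (chromosome 13, 100407764 to 100452869, minus strand) encodes a sensor of bacterial needle protein that acts through Nlrc4. It was the least abundant member by mean CPM in ntCZC (22.7), whereas in tissue Garnl3 was lower (mean 1.83 against 2.78 CPM). Naip1 was at 9.79, 25.5, 63.0 and 5.54 CPM in het, 54.4, 5.88, 21.0 and 16.1 CPM in null and 2.98 CPM in wt replicate 1, against 1.29 to 10.1 CPM in tissue. Naip1 has near-identical neighbours (Naip2, Naip5, Naip6) that can share reads with it, so its counts are uncertain. Prg4 overlaps Tpr on the other strand, and whether the counting used strand is not given in the sources used here. Serpinb2 overlaps Serpinb10 on the same strand, which strand cannot separate. F5, Selp, Garnl3, Ltbp1 and Naip1 also overlap other annotated genes.

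**Figure D1:**
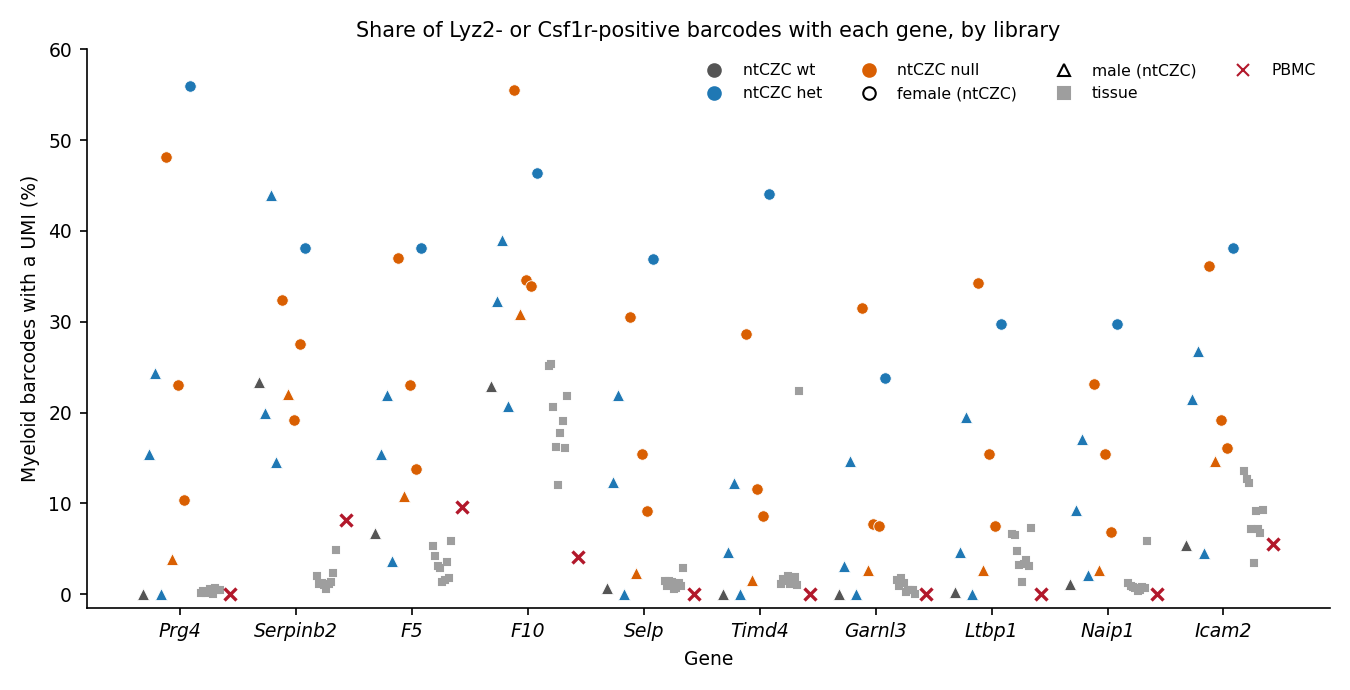
Percentage of Lyz2- or Csf1r-positive barcodes with at least 1 UMI of each gene (y axis) for the 10 genes (x axis), with 1 point per library for 9 ntCZC, 9 tissue and 1 PBMC libraries. For Prg4, the points of wt replicate 1 and het replicate 4 lie at 0 and those of the other ntCZC libraries between 3.86% and 56.0%, above the tissue libraries at 0.0590% to 0.687%.

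In each of the 10 genes the lowest level of the 9 ntCZC libraries came from wt replicate 1 or het replicate 4. The 10 genes summed to 211 CPM in wt replicate 1 and 136 CPM in het replicate 4, and to 906 to 5726 CPM in the other 7 libraries. Thinning each barcode to 1000 UMIs, which left out 108 ntCZC and 2446 tissue barcodes, lowered the shares but kept ntCZC above tissue, with 7.17% against 0.216% for Prg4 and 7.49% against 0.604% for Serpinb2 over pooled barcodes. Thinned, the pooled shares lay close for F10 (9.17% in ntCZC and 7.20% in tissue), Ltbp1 (2.00% and 1.51%) and Icam2 (4.26% and 4.01%). Pooling weighs libraries by their barcodes, and wt replicate 1 and het replicate 4, low in the members, gave 406 and 434 of the 1548 thinned ntCZC barcodes. Because counts were summed over barcodes, more positive cells and more RNA per cell cannot be told apart in the CPM of a library.

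In an edgeR quasi-likelihood fit of 18 libraries across 9890 genes, 26.6% of all genes tested were called higher and 31.4% lower in ntCZC than in tissue. This fit had sex but not genotype as a covariate, with 1 wt, 4 het and 4 null ntCZC libraries against 5 wt, 2 het and 2 null tissue libraries. Cells sorted from blood also differ from dissociated organs in source and handling. The part of genotype, source and handling in these calls was not tested. The ntCZC and tissue libraries of wt replicate 1, het replicate 2 and null replicate 2 match in sex and age. Whether they share mice is not stated, and the fit did not pair them. Of the 10 members, 9 passed the count filter of that fit (Garnl3 did not) and all 9 were called higher, which repeats the choice of the genes and is read as no result. The members' log2 changes ran from 1.02 for F10 to 6.79 for Prg4. Other genes of the same functions, from lists drawn up with earlier results of these data known, were not all higher with them. Of 21 other large peritoneal macrophage genes tested, 12 were higher in ntCZC, among them Alox15, Cxcl13, Saa3, C4b and Fn1, and 3 were lower (Jag1, Cd93, Nt5e). Of 14 other clotting and fibrinolysis genes tested, none was higher and 9 were lower, including F3 (tissue factor), F7, Plat and Plau (plasminogen activators) and Thbd (thrombomodulin). Of 6 Naip and Nlrc4 inflammasome genes 5 were higher (Casp1, Naip2, Naip5, Naip6, Gsdmd), and of 11 nonclassical monocyte genes 10 were higher. All 8 endothelial genes tested were lower in ntCZC. So were all 3 genes tested of the mesothelial list, which were the keratins Krt19, Krt8 and Krt18 and are not specific to mesothelium.

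Transcripts of other cell types were also counted in the summed myeloid barcodes. The 8 endothelial genes summed to 321 to 853 CPM in tissue myeloid barcodes and to 9.56 to 44.3 CPM in ntCZC. The 9 genes of the mesothelial list, which include these keratins, summed to 275 to 844 CPM and 0 to 52.5 CPM, so their sum is not specific to mesothelium. Their part in the tissue levels of the members was not tested.

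The members were often detected in the same barcodes. Over pooled libraries, a minority of ntCZC myeloid barcodes held many of the 10 genes and most held none or 1. In null replicate 1 and het replicate 3, however, 55.6% and 61.9% held 2 or more. Among the 658 het barcodes, 369 held none, 166 held 1, 54 held 2, and 7 held all 10. Among the 567 null barcodes, 237 held none and 21 held all 10, and more barcodes held 9 (18) than 7 (3) or 8 (6). Among the 431 wt barcodes no barcode held more than 4. At each number from 4 to 8 genes there were 3 to 8 barcodes in het and in null, fewer than at 9 genes, where there were 17 and 18.

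At least 3 of the 10 genes were detected in 172 of 1656 ntCZC myeloid barcodes (10.4%, 95% Clopper-Pearson interval 8.96% to 12.0%), in 370 of 33414 tissue barcodes (1.11%, 0.998% to 1.23%) and in 0 of 73 PBMC barcodes, which allows a share of up to 4.11%. Intervals and limits cover counting error only. By library the share was 1.87% (0.810% to 3.65%) in wt replicate 1. In het it was 15.4% (7.63% to 26.5%), 24.4% (12.4% to 40.3%), 51.2% (40.0% to 62.3%) and 1.28% (0.472% to 2.77%) in replicates 1 to 4. In null it was 45.4% (35.8% to 55.2%), 7.34% (4.47% to 11.2%), 26.9% (11.6% to 47.8%) and 11.5% (7.16% to 17.2%) in replicates 1 to 4. The genotype groups overlapped, since het held both the highest and the lowest of the 9 libraries. With barcodes thinned to 1000 UMIs the mean share over 9 libraries was 12.2% rather than 20.6%, and it was 0 in wt replicate 1 and het replicate 4.

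The 8 barcodes of wt replicate 1 and the 6 of het replicate 4 with 3 or more of the genes held no transcript of Prg4, Timd4, Garnl3 or Ltbp1, and reached the count through F10, Serpinb2, F5, Icam2, Naip1 and a single Selp transcript. At 5 or more genes, the share was 0 in both libraries, which allows up to 0.701% and 0.641%, and 112 barcodes remained in the other 7 libraries, against 50 (0.150%) in tissue. In these 112 barcodes Prg4 ran from 2249 CPM in het replicate 1 to 8136 CPM in null replicate 2, and Timd4 from 205 to 451 CPM. Within barcodes of 5 or more genes, Prg4 was at 2249, 4631 and 8136 CPM in the 3 male libraries and 5084, 5092, 6280 and 6475 CPM in the 4 female libraries, which overlapped, as did 8 other members. Timd4, at 205, 251 and 283 CPM in males and 296, 308, 389 and 451 CPM in females, did not overlap.

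**Figure D2:**
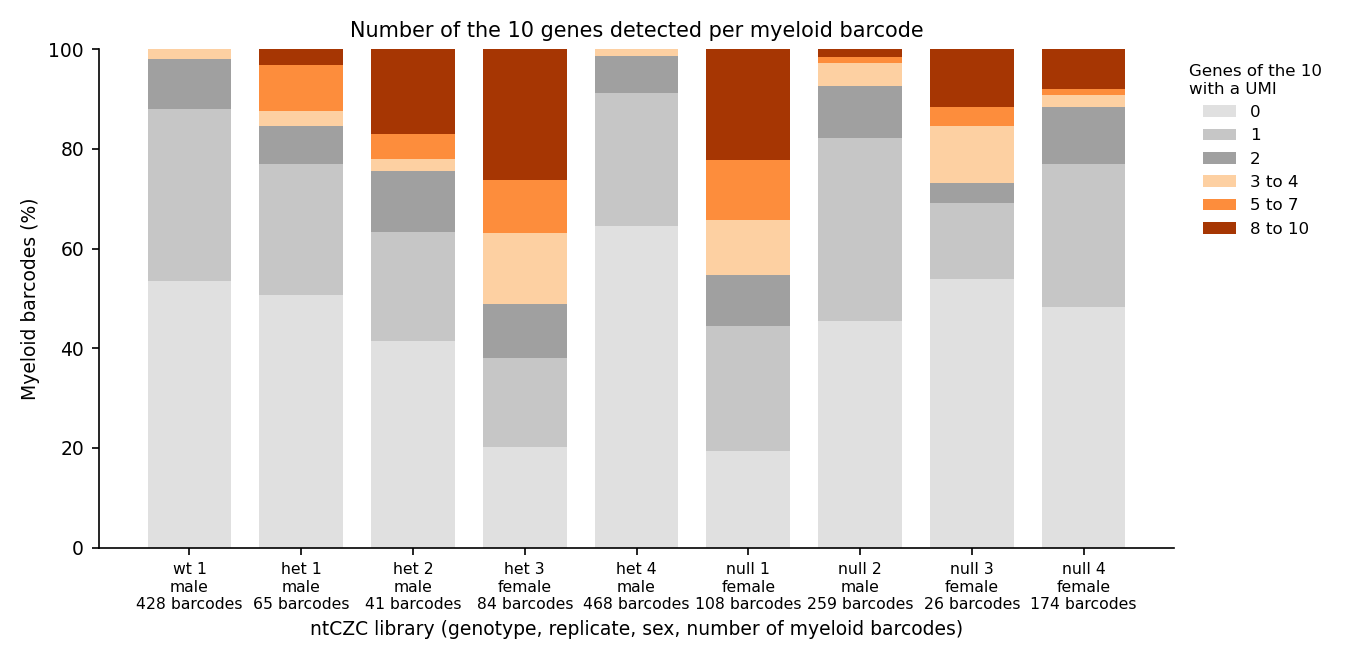
Percentage of myeloid barcodes (y axis) by the number of the 10 genes with a UMI (shades) in each of 9 ntCZC libraries (x axis). Barcodes with 5 or more of the genes appear in 7 libraries and in neither wt replicate 1 nor het replicate 4.

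Each member was then described against the other 9. In ntCZC barcodes with 3 or more of the other 9 genes, Prg4 was found in 75.6% (121 of 160) and in barcodes with 0 to 2 of them in 2.14% (32 of 1496). Over pooled libraries, the ratio of the shares was highest for Selp (60.2% against 0.471%), Garnl3 (46.2% against 0.403%), Ltbp1 (51.5% against 0.872%) and Timd4 (50% against 0.941%), which were rare outside such barcodes. By library, the first share ran from 0% to 90% for Selp, 65% for Garnl3, 80% for Ltbp1 and 70% for Timd4. F10 (83.8% against 24.1%) and Serpinb2 (69.4% against 18.3%) were by contrast also common in barcodes with few of the others. Of Selp-positive barcodes 93.6% held Prg4, as did 92.9% of Garnl3-positive, 91.8% of Ltbp1-positive and 89.8% of Timd4-positive barcodes. Of Serpinb2-positive and F10-positive barcodes, 26.3% and 25.2% held Prg4. In tissue the same split gave 14.4% against 0.191% for Prg4, 8.96% against 1.5% for Timd4 and 50% against 9.99% for Icam2. Deeper barcodes detect more genes of any kind, and these shares are given without a test.

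**Figure D3:**
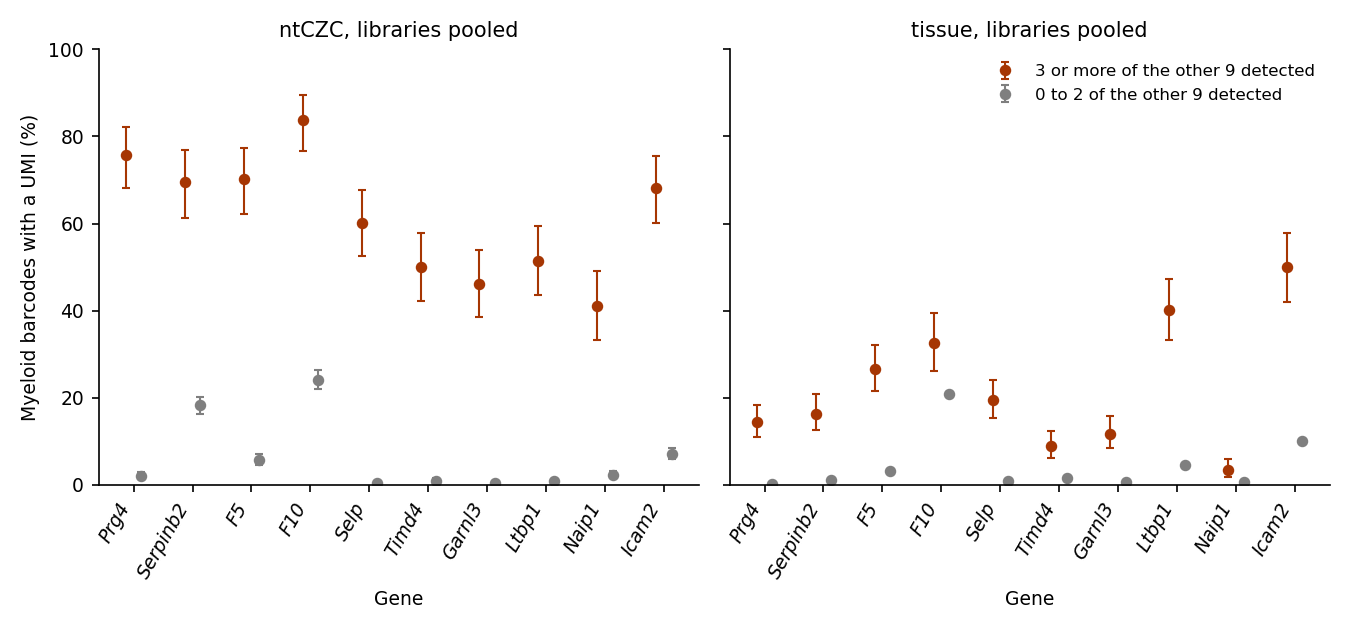
Percentage of myeloid barcodes with a UMI of each gene (y axis, x axis the 10 genes) where 3 or more of the other 9 genes were detected and where 0 to 2 were, with libraries pooled in ntCZC (left) and tissue (right) and 95% Clopper-Pearson intervals as bars. In ntCZC Selp, Timd4, Garnl3 and Ltbp1 lie between 46.2% and 60.2% in the first class and under 1% in the second.

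In the ntCZC barcodes with 0 to 2 of the 10 genes, Serpinb2 was at 0 to 81.5 CPM over the 9 ntCZC libraries, with wt replicate 1 highest and null replicate 3 at 0, and F10 was at 33.3 to 86.4 CPM.

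The comparison of barcodes with 3 or more of the genes against the other myeloid barcodes of the same ntCZC libraries asked which other genes went with the members. Of the listed genes tested, 9 of 11 other large peritoneal macrophage genes were higher, and 9 of 11 nonclassical monocyte genes and 6 of 8 genes of small peritoneal macrophages and MHC class II were lower. The lists were drawn up with earlier results of these data known, so such counts are no independent test. Across 3811 genes tested in 9 libraries with library as a block, the quasi-likelihood test of edgeR, with p-values adjusted by Benjamini and Hochberg's method, called 11.9% of all genes higher and 12.5% lower. With the limit at 5 or more members, an alternative chosen after seeing the data that leaves wt replicate 1, het replicate 4 and null replicate 3 with too few such barcodes, 1182 of 4196 genes were called in 6 libraries, 761 of them shared. The 933 called genes became 579 without null replicate 1 and 560 without null replicate 4. Of the members, Serpinb2, F5, F10 and Icam2 passed the count filter, and their log2 changes of 2.70 to 5.27 follow from the split. Barcodes with 3 or more members were deeper in 9 of 9 libraries, with library medians of 6204 to 20715 UMIs against 3222 to 7066, and median mitochondrial shares were 1.99% to 3.59% against 1.84% to 4.79%; summed B cell genes were 0 to 11.8 CPM against 41.6 to 1860.1 CPM. The part of depth or of other cells in the calls was not tested.

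Of 11 other large peritoneal macrophage genes tested, 9 were higher in the barcodes with 3 or more members. Alox15, a lipoxygenase of resident peritoneal macrophages, was at 1286 ± 900 CPM (SD, n = 9 libraries) against 6.49 ± 14.0 CPM, a log2 change of 7.99 ± 0.53 (SE, edgeR adjusted p = 3.27e-06), and was higher in 8 of 9 libraries. Saa3, an acute-phase protein, changed by 7.69 ± 1.08 (edgeR adjusted p = 0.000318), and Fcna, a ficolin of the lectin pathway, by 5.41 ± 0.91. Complement C4b was at 1034 ± 627 against 96.1 ± 229.7 CPM. Saa3, Fcna, C4b and Adgre1 were each higher in 7 of 9 libraries. Fn1 (fibronectin), Thbs1 (thrombospondin), Adgre1, Itgam and Emilin2 were also higher, by log2 changes of 1.81 to 4.04, whereas Bhlhe40 and Cebpb (0.46 and 0.06) were not called. The list holds 23 genes, and those not tested were too sparse in single libraries. Of these, Gata6, Cxcl13, Vsig4, Ednrb and Tgfb2 are described here, and the others, which include Jag1, Cd93 and Nt5e, are not. The pooled shares lean on 2 female libraries, since null replicate 1 gave 49 and het replicate 3 gave 43 of the 172 barcodes. Over pooled barcodes, Gata6 had 111 UMIs in 33.7% of the 172 barcodes against 2 UMIs in 0.0674% of the 1484 others, and Cxcl13, a B cell chemokine, was in 47.1% against 0.404%. Vsig4, a complement receptor, was in 23.8% against 0.270%, Ednrb in 65.1% against 0.809% and Tgfb2 in 54.1% against 0.674%.

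Genes of other macrophages were read beside these. All 3 C1q genes tested were called higher, each higher in 7 of 9 libraries, with C1qc at 2868 ± 1857 against 197 ± 273 CPM (log2 4.67 ± 0.76, edgeR adjusted p = 0.000730). Of the Kupffer cell markers, Clec4f had 0 UMIs in all 1656 barcodes, while Cd5l was in 70.9% of the 172 barcodes against 1.35%, and Marco in 19.8% against 0.404%. Pf4, a chemokine of platelets that macrophages can also make, was higher by 5.56 ± 1.14 (edgeR adjusted p = 0.00303) and in 70.9% of the 172 barcodes, whereas the other 9 platelet genes had 4 to 90 UMIs each there. None of the 9 mesothelial genes had a UMI in the 172 barcodes, and none of the 172 held 2 or more B cell genes, against 29 of 1481.

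Lists of monocyte and antigen presentation genes were read next. Of 8 genes tested of small peritoneal macrophages and MHC class II, 6 were lower and none higher, with Cd74, the invariant chain, at 1559 ± 1345 against 9175 ± 3740 CPM (log2 -2.72 ± 0.35, edgeR adjusted p = 0.000222) and lower in 9 of 9 libraries. H2-Eb1, H2-Ab1 and H2-Aa changed by -3.40, -2.86 and -2.86. Of 11 nonclassical monocyte genes 9 were lower, led by Treml4 (-3.12 ± 0.48) and Ace (-2.82 ± 0.39), with Nr4a1, the transcription factor on which these monocytes depend, at -1.53 ± 0.32, and Fabp4 was higher by 1.70 ± 0.50. Plac8, a gene of classical monocytes, was lower by a log2 change of -2.28 ± 0.67.

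Partners of the members' own functions were read in the same comparison. Of 4 other clotting and fibrinolysis genes tested, Pros1 (protein S) was higher by 2.15 ± 0.36 (edgeR adjusted p = 0.000867) and Thbd was lower by -1.12 ± 0.37. Plaur, the urokinase receptor (0.48 ± 0.21), and F13a1 (1.08 ± 0.42) were not called. None of the 4 Naip and Nlrc4 inflammasome genes tested was called, with Naip2 at 0.06 ± 0.23 and Naip5 at -0.05 ± 0.22. Among partners of the adhesion molecules and of Tim4, Selplg (the P-selectin ligand, 0.78 ± 0.16) and Itgb2 (the shared beta chain of LFA-1 and Mac-1, 0.70 ± 0.20) were higher, and Itgal, the LFA-1 alpha chain that binds Icam2 (-2.50 ± 0.34), and Havcr2 were lower.

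Members aside, by the naming rule (the largest changes past an adjusted p of 0.05 with 1 direction in 9 of 9 libraries), 68 genes rose and 205 fell in every library. The 10 largest increases among genes other than the members were in Ecm1, Padi4, Fn1, Trf, Wfdc17, Cd24a, Ank, Cd14, Evi5 and Hgsnat, with log2 changes of 5.27 down to 2.46. Ecm1, a matrix protein, was at 1016 ± 640 against 34.5 ± 58.6 CPM, Trf encodes transferrin, and Cd14 the co-receptor for lipopolysaccharide (515 ± 229 against 89.8 ± 41.0 CPM). The 5 largest decreases among them were in Itgax (Cd11c, -3.73 ± 0.50), H2-Eb1, Ly6i, Treml4 and Ear2.

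**Figure D4:**
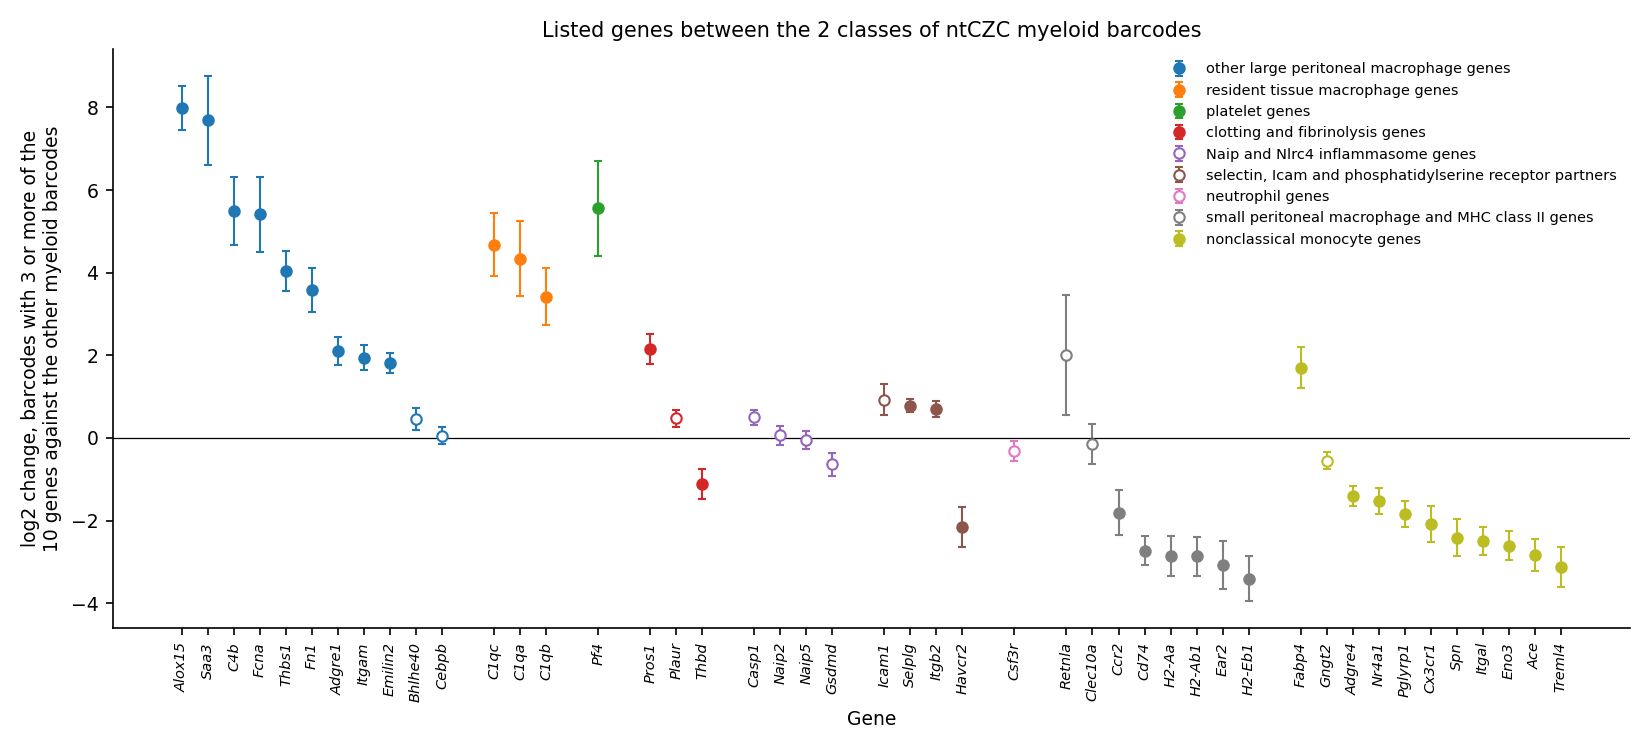
Log2 change between ntCZC myeloid barcodes with 3 or more of the 10 genes and the other myeloid barcodes (y axis, bars 1 SE, 9 libraries) for genes tested of the lists shown (x axis, colours), filled where called at an adjusted p under 0.05 by edgeR. Large peritoneal macrophage and C1q genes lie above 0, from 1.81 to 7.99 where called, and MHC class II and most nonclassical monocyte genes below 0.

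All 10 members had higher mean CPM in female than in male ntCZC libraries, and none of the differences passed the test. The members were picked on these same libraries and for detection in the same barcodes, so the 10 directions are not separate results. In the fit with genotype as a covariate, 0.0459% of 8706 genes were called between 4 female and 5 male libraries (Xist, Eif2s3y, Ddx3y and Klf9), which matches the labelled sex for the first 3, and 0 of the 10 members. The counts at an unadjusted p under 0.05 were 1379 of 8706 genes and 3 of 10 members, and DESeq2 called 191 genes and 2 members. Serpinb2 was at 400.2, 373, 303 and 570 CPM in females and at 82.9, 113, 191, 40.3 and 82.9 CPM in males, which did not overlap (log2 2.39 ± 0.44, edgeR adjusted p = 0.101). Naip1 was at 38.6 CPM on average in females and 9.94 CPM in males (2.66 ± 0.59, edgeR adjusted p = 0.123), with the ranges of 16.1 to 63.0 and 2.98 to 25.5 CPM overlapping. Selp, at 108 to 226 CPM in females and 0 to 98.8 CPM in males, did not overlap either (2.04 ± 0.95, edgeR adjusted p = 0.333). Timd4 was at 171 ± 94.1 CPM in females and 35.0 ± 43.4 CPM in males (3.00 ± 0.98, edgeR adjusted p = 0.200).

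Prg4 was at 2489 ± 988 CPM in females and 595 ± 750 CPM in males (log2 2.25 ± 1.36, edgeR adjusted p = 0.467), and the highest male library (het replicate 2, 1825 CPM) exceeded the lowest 2 female libraries. The other 5 members ranged from 1.08 (F10) to 2.15 (Ltbp1) with adjusted p of 0.346 to 0.595 by edgeR. In every alternative of this comparison in which all 10 members were fitted, all 10 log2 changes were above 0, again not as separate results. Without the count filter edgeR called Serpinb2 (adjusted p = 0.000156), Naip1 (0.00312) and Timd4 (0.00891). DESeq2 called Serpinb2 (adjusted p = 0.000221) and Naip1 (adjusted p = 0.0182), and edgeR called Serpinb2 without het replicate 4 (adjusted p = 0.0150) and called Serpinb2 and Naip1 without null replicate 4 (adjusted p = 0.0469 for each). Without het replicate 3 the adjusted p by edgeR was 1 for every member.

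The share of barcodes with 3 or more members ran from 11.5% to 51.2% in the 4 female libraries (119 of 392 barcodes) and from 1.28% to 24.4% in the 5 male libraries (53 of 1264 with wt replicate 3), which overlapped. None of the other lists had a gene called by sex. Summed neutrophil genes were 84.0 to 3818 CPM in female libraries and 65.3 to 13696 CPM in male libraries, and summed B cell genes 26.3 to 586 and 47.8 to 168 CPM. Summed nonclassical monocyte genes were 1098 to 4513 CPM in female and 3712 to 5652 CPM in male libraries, and summed resident tissue macrophage genes 3999 to 11525 CPM and 16.6 to 8361 CPM. Their part in the members' values was not tested. Females were 3 of 4 null and 1 of 4 het libraries and no wt library, and the fit separates sex from genotype only through these. The lone wt library in the fit, a male, has a genotype term of its own and so does not inform the sex change.

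**Figure D5:**
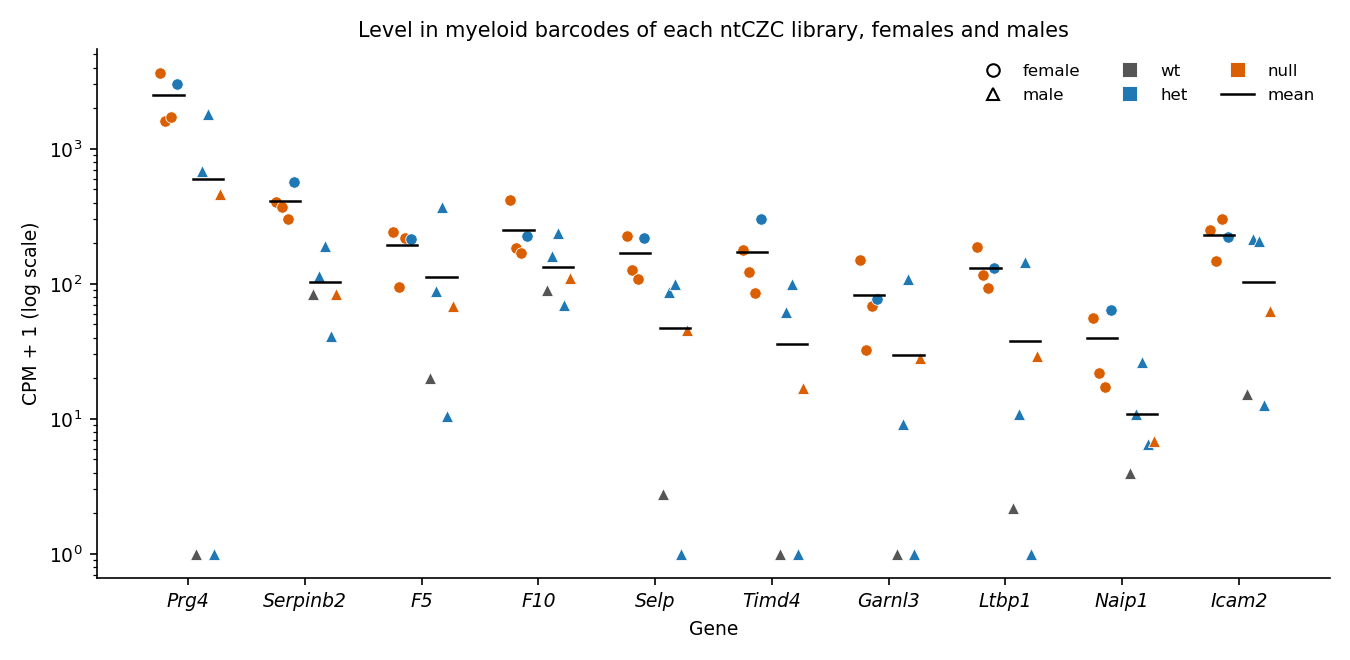
CPM + 1 in myeloid barcodes (log y axis) for the 10 genes (x axis) in 4 female (circles) and 5 male (triangles) ntCZC libraries, coloured by genotype, with the mean as a line. All female libraries lie above all male ones for Serpinb2 (303 to 570 against 40.3 to 191 CPM) and for Selp (108 to 226 against 0 to 98.8 CPM), and the other genes overlap.

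Between null and het ntCZC, on values that had entered the choice of the genes, the members differed by log2 changes of -1.37 (Timd4) to 0.10 (Garnl3), with sex as a covariate. The fit called 0 of 8706 genes (0% of all tested) by edgeR, with 619 at an unadjusted p under 0.05 and 19 by DESeq2, and edgeR called 35 genes without het replicate 4 and 2 without null replicate 2. Prg4 averaged 1379 ± 1318 CPM in 4 het and 1854 ± 1311 CPM in 4 null libraries, a difference smaller than either SD, whereas with sex as a covariate its log2 change was -0.63 ± 1.35, lower in null. Wt could not be compared over replicates, since it had a single usable library. Wt replicate 1 and het replicate 4 were both low in the members, but summed neutrophil genes were 13696 CPM in the first and 73.0 CPM in the second, and their part in the members' levels was not tested.

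In tissue, where genotype had no part in the choice, no member passed the test between null and wt. Myeloid barcodes of 2 null and 5 wt tissue libraries gave 0 called of 15308 genes (0%) and 0 of 10 members by edgeR, with 1059 genes and 0 members at an unadjusted p under 0.05 and 85 genes by DESeq2. Without tissue wt replicate 1 edgeR called 2 genes, and without tissue null replicate 2 it called 4, a fit in which the lone null library is assumed to vary like the other groups. The members' log2 changes ran from -1.27 ± 1.68 for Prg4 to 0.11 ± 0.43 for Icam2, 7 lower and 3 higher in null, with edgeR adjusted p of 0.717 to 0.999. F10, the most evenly detected member, was at 89.3 and 90.4 CPM in null and at 64.8 to 94.0 CPM in wt, 0.07 ± 0.17 on the log2 scale. With 2 null libraries, the errors of 0.17 to 1.68 on the log2 scale limit what could be detected.

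In PBMC, Icam2 (29.3 CPM), Serpinb2, F5 and F10 were found and the other 6 genes were at 0 UMIs in 73 barcodes, which allows up to 22.0 CPM of each. In the 679 PBMC barcodes that passed the filters there were 4 Prg4 transcripts, none of them in a myeloid barcode.

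Across the 9 ntCZC libraries, genes whose log2(CPM + 1) followed the sum of the 10 members closely among 8762 genes with at least 50 UMIs were Ptgs1 (Pearson r = 0.990, Spearman rho = 0.967), Ecm1 (0.987), Alox15 (0.984), Ptgis (0.982), Cpne8 (0.979), Efnb2 (0.979), Cfp (0.978), Fabp4 (0.978) and Ednrb (0.977). Ptgs1 (cyclooxygenase-1) and Ptgis (prostacyclin synthase) make prostanoids, and Cfp is properdin of the complement system. Ptgs1 ran from 1.51 to 193 CPM and Alox15 from 0 to 1250 CPM. These points share library, barcodes and depth with the members, and wt replicate 1 and het replicate 4 form the low end, so the coefficients are a description without a p.

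Because the members went together and GATA6 is the known regulator of large peritoneal macrophages, the promoters were searched for the GATA letters AGATAA or AGATAG and TGATAA or TGATAG on either strand. RefSeq promoter windows of 300 bases (250 before to 50 after the start site, GRCm38.p6) were present for 8 of the 10 genes, and 2 of the 8 held a match in a window. One was held by 33% of all 27025 genes with a window, and by 29.8% of the 32851 windows. The matches are printed with the motif in capitals. In Serpinb2 (chr1:107511457-107511486, plus strand) the motif begins 41 bases before the RefSeq start site, although the GENCODE start given above lies upstream of it, and in Timd4 (chr11:46810792-46810821, plus strand) it begins 5 bases after it and reads on the opposite strand.
Serpinb2: cagccgctcagaAGATAAcgaggtaataca
Timd4: gacacacagatcCTATCAaaatgtccaagg
A match is a run of letters and not a bound site, and binding was not measured.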

How the data were processed

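Droplet 3′ single-cell RNA-seq libraries were deposited as matrices of raw UMI counts per gene and barcode, which the authors made by aligning reads to mm10 with Cell Ranger. The matrix headers give Cell Ranger 3.0.2 and the submitters' processing notes Cell Ranger 2.1.1, and whether the counting used strand is not given in the sources used here. Each library has a matrix of its own. Of 22 libraries, 2 tissue libraries whose labels disagree on genotype entered no comparison. The hashtag counts that assign tissue barcodes to organs were not used here.

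A barcode was kept when it held 200 or more genes and no more than 25% mitochondrial counts, and barcodes with a UMI of Lyz2 or Csf1r were called myeloid. No doublet caller was run; barcodes with 2 or more B cell genes were counted instead. Counts were summed per library, for libraries with at least 10 myeloid barcodes, and tested with edgeR 4.0.16 (TMM, filterByExpr, quasi-likelihood, Benjamini-Hochberg, adjusted p under 0.05) in R 4.3.3. The fit of ntCZC against tissue had sex as a covariate, the fits within ntCZC and within tissue had sex and genotype, and library was a block between barcode classes. Steps were tested on simulated data. DESeq2 1.42.0, other size factors, no count filter, other barcode limits and leaving out each library were alternatives. Shares carry exact Clopper-Pearson intervals (95%), and where nothing was counted the upper limit is that of 3 counts. Python 3.11.15 with numpy 2.4.6, scipy 1.17.1 and pandas 2.3.3 did the rest.

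The 10 genes and all gene lists were chosen with earlier results of these data known. Genes named in the barcode comparison were the 10 largest increases and 5 largest decreases that were called and had 1 direction in every library. A few results on single genes are not reported here. Positions come from GENCODE on GRCm38 and promoter sequence from RefSeq on GRCm38.p6.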

Additional observations from a re-analysis of the deposited data

Results flagged for a closer look

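The 10 genes and the share with 3 or more members were checked in het ntCZC, null ntCZC and wt tissue, groups of 4 or 5 libraries. In these 33 checks the extreme library was set against its neighbours by Dixon's criterion, and 4 values met it. Chance meets it in about 1 of 20 independent checks, but these checks share libraries and are not independent. Tissue wt replicate 5, which had 206 myeloid barcodes, accounted for 3 of them. Timd4 was at 83.7 CPM in that library against 3.74 to 11.5 CPM in the other wt tissue libraries, Naip1 was at 10.1 CPM against 1.52 to 2.87 CPM, and F10 was at 64.8 CPM against 92.6 to 94.0 CPM. In ntCZC het, Icam2 was at 11.6 CPM in replicate 4 against 207 to 220.4 CPM in the other 3 libraries.

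The 2 tissue libraries without a group entered no comparison. F10 was at 120.4 CPM in the female one, above the highest wt tissue library at 94.0 CPM, and Icam2 at 55.7 CPM there, above 47.1 CPM. Garnl3 was at 2.40 CPM in the male one, from 10 UMIs, above the highest wt tissue library at 2.17 CPM but below the highest of all tissue libraries with a group (3.08 CPM).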

How the results depend on the processing

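Each single-gene or list result was checked under each alternative. Of these checks, 3084 were labelled the same, 183 moved, 9 came past the threshold and 23 changed sign. For members by sex and in tissue, the same meant direction and side of the threshold. In the other comparisons it meant a log2 change within the SE of the main value, and for shares within the SD. For list counts it meant an equal or similar count. Changes of sign between null and het ntCZC were not labelled as such. The genes called between ntCZC and tissue (5729) rose to 9312 without the count filter. Between null and het ntCZC (0) they were 19 by DESeq2, 38 without the filter and 0 to 35 when each library was left out. Between female and male ntCZC (4) they were 191 by DESeq2, 415 without the filter, 8 in Csf1r-positive barcodes, 8 with barcodes of 3 or more members left out, an alternative chosen after seeing the data, and 3 to 62 when each library was left out. Between null and wt tissue (0) they were 85 by DESeq2 and 0 to 4 when each library was left out. Between barcode classes (933) they were 1793 without the filter, 600 with 2 or more members, 1182 with 5 or more (761 shared) and 560 to 1029 when each library was left out. The cause was not tested, beyond the larger number of genes tested without the filter.

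Leaving out barcodes of 3 or more members removes the transcripts being compared (10.4% of ntCZC and 1.11% of tissue barcodes), so the turns that follow are built in and are no evidence. The ntCZC against tissue log2 change turned to -0.38 for F10, -1.73 for Timd4, -3.46 for Ltbp1 and -1.06 for Icam2, and the female against male change to -0.053 for Serpinb2 and -0.24 for Icam2, while Prg4 went from 2.25 to 4.28 and Timd4 from 3.00 to 7.70. In tissue null against wt, changes near 0 changed sign. F10 was -0.37 in Csf1r-positive barcodes, and Garnl3 was -0.038 by DESeq2, -0.0062 without the filter, -0.21 at 500 or more genes, -0.25 at up to 20% mitochondrial counts and -0.050 without the sex covariate. Leaving out each tissue library, where a lone null library is assumed to vary like the other groups, gave ranges of -0.045 to 0.20 for F10, -0.90 to 0.023 for Selp, -2.62 to 0.75 for Timd4, -0.19 to 0.57 for Garnl3 and -0.74 to 0.86 for Icam2.

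Deviations of same-numbered het and null ntCZC libraries from their group means correlated at -0.118, -0.0083, -0.0176 and 0.157. None matched its own number best, so the main fits did not pair libraries by number. These few correlations cannot show whether libraries share a litter, a sort or a run. With the replicate block the fit called 0 genes between null and het and 12 between female and male, including Garnl3 (adjusted p = 0.0436 by edgeR). That block leaves little from 9 libraries to estimate the spread. Depth limits sparse members, since thinned barcodes detect few of them, and libraries with 26 to 84 myeloid barcodes carry wide intervals.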

Other observations

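F7, which encodes factor VII, the starter of the pathway that activates factor X, was lower in ntCZC than in tissue as a whole, at 43.7 ± 31.3 CPM (SD, n = 9) against 92.8 ± 33.8 CPM (log2 change -1.48 ± 0.60, edgeR adjusted p = 0.0402). Within ntCZC it lay with the members, since 81 of the 172 barcodes with 3 or more members held F7 (47.1%), against 12 of the 1484 others (0.809%). F7 was picked out after its values were seen. It was too sparse by library for the barcode comparison, so these pooled shares carry no test, and the 172 barcodes were the deeper ones.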
